A study of Mus musculus with 3 samples.

Results

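The genes described here are 8 that are known for transcription in the growing oocyte of the mouse: Zp1, Zp2, Zp3, Gdf9, Bmp15, Oosp1, H1foo and Nlrp5. They were picked from these data, on signals that were high on the array of females mated with vasectomized males, and members were then found by the gene name printed for each non-control probe. Probes under those names were present for 6 of the 8 genes, of 27642 genes measured in all. Nlrp5 was found instead by its accession, under the older name Nalp5, and Zp1 by its probe description, and both are described apart. All values from the vasectomized-mated array are therefore a description of the choice, and nothing is supported with them.

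The study measured total RNA of the utero-tubular junction, the narrow passage between the uterus and the oviduct, in adult CD-1 female mice in estrus. It compared females mated with a vasectomized male, females mated with a normal male, and females not mated. Each group was 1 pool of 10 females hybridised to 1 single-colour array, so the spread between females was not measured and no difference has a replicate check. A vasectomized male mates and leaves seminal fluid without sperm.

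Oocytes build the zona pellucida, a coat of glycoproteins through which sperm must pass, and secrete growth factors that act on the granulosa and cumulus cells around them. They also store maternal proteins and RNAs, among them a linker histone and the parts of the subcortical maternal complex, which the embryo needs before its own genome is active. The transcription factors FIGLA and NOBOX are known to drive many of these genes, FIGLA by binding E-box sequences with a partner protein and NOBOX by binding homeodomain sites.

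The label was checked against the probes. By the brightest probe of each of the 6 members found by name, 5 were well above background in the vasectomized-mated pool, 5 on the normal-mated array and 2, Gdf9 and H1foo, on the not mated array. A second probe of Zp3 also passed on the not mated array. It was the dimmer Zp3 probe over the 3 arrays but the brighter on this one, at 20.3 against 10.9. Zp1, Zp2 and Nlrp5, all of them defining oocyte genes, were not well above background on any of the 3 arrays. The set therefore did not appear as a whole, and it is called below by its gene names. In a tissue pool, fewer cells of a type and less RNA per cell cannot be told apart.

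The promoters of Zp3, Oosp1 and H1foo (RefSeq symbol H1f8) are shown because their probes differed most clearly between arrays and RefSeq entries were at hand. Of the 8 members, 5 matched an entry. Each sequence is the 250 bases before the RefSeq start on the gene's strand (RefSeq, GRCm38.p6), 5′ to 3′, with the letters CANNTG, the E-box, in capitals.
Zp3, chr5:135979855-135980104, plus strand: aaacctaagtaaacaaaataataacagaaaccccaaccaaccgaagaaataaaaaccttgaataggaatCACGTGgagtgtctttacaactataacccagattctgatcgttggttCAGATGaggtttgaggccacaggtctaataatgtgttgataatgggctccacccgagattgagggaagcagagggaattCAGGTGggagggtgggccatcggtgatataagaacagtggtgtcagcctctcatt
Oosp1, chr19:11691052-11691301, minus strand: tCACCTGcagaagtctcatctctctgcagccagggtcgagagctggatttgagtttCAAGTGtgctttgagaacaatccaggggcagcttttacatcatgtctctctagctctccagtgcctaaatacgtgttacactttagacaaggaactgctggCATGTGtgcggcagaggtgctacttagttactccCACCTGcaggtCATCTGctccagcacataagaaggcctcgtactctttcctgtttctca
H1foo, chr6:115944681-115944930, plus strand: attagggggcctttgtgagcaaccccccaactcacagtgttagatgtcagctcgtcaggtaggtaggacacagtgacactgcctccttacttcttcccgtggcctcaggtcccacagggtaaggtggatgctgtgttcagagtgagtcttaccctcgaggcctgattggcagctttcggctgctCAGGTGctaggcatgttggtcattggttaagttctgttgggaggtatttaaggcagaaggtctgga

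Each window was searched for the E-box letters CANNTG, which read the same on both strands. It was also searched for the homeodomain letters TAATTG on both strands. A second homeodomain form, TAATTA, reads the same on both strands, and overlapping matches of different letter sets were not merged. The Oosp1 window held 5 E-boxes, 249, 194, 93, 59 and 48 bases before the start. The Zp3 window held 3, at 181, 134 and 55 bases, and the H1foo window held 1, at 66 bases. Of 32851 promoters of the same length, 66.2% held at least 1 E-box and 12.2% held 3 or more. TAATTG, present in 7.2% of all promoters, was in no member window, and TAATTA, present in 4.8%, was in the Bmp15 window and in 1 of 2 windows of Nlrp5. A match describes letters only, and no site or cause follows from it.

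Signals below are the scanner software's processed intensities, each with the software's own error, and a level is log2 of the intensity minus the array's 75th percentile. The 75th percentile was 295 on the vasectomized-mated array, 708 on the normal-mated array and 874 on the not mated array. Between 65.9% and 70.7% of 41174 probes were well above background, and no probe was saturated. Repeat spots of one probe had a median SD of 0.0541 to 0.0644 on the log2 scale. Different probes of one gene were far less alike. Their ratios were over 2-fold apart in 51.9% of 5829 genes for vasectomized mated against not mated, in 50% of 5957 genes for normal mated against vasectomized mated, and in 11.9% of 6308 genes for normal mated against not mated. The comparisons with 51.9% and 50% both use the vasectomized-mated array, and the one with 11.9% does not. The software's error of a single probe does not cover this spread between probes. Member values are therefore given side by side for each probe.

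The 3 zona pellucida genes encode the glycoproteins of the egg coat. Zp3, which encodes the glycoprotein long studied as a sperm receptor, had 2 probes that differed. The probe at chr5:134959691-134959750 (mm7, the build in the file headers, plus strand) gave 57.8 ± 5.90 on the vasectomized-mated array, 35.6 ± 3.80 on the normal-mated array and 10.9 ± 2.92 on the not mated array. It was not well above background in the not mated pool, where it has only a bound. Such a bound sets the bright array's level against the lowest level well above background on the dim array, or the dim probe's own if that is higher. By this probe Zp3 was at least 12.9-fold higher in vasectomized-mated females than in females not mated (log2 3.69), and at least 3.31-fold higher in normal-mated females (log2 1.73). The other probe spans chr5:134958870-134959720 and was well above background on all 3 arrays, with 31.1 ± 3.45 on the vasectomized-mated array, 16 ± 2.23 on the normal-mated array and 20.3 ± 3.71 on the not mated array. It also read higher after vasectomized mating (4.54-fold, log2 2.18), but its log2 ratio of normal mated over not mated was -0.04. The 2 probes thus differ on whether Zp3 was higher after normal mating. Both placed normal-mated below vasectomized-mated females, by 3.91-fold and 4.68-fold.

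Zp2, whose protein binds sperm in the coat, gave 1.18 ± 1.18 and 1.54 ± 1.53 on the vasectomized-mated array from its 2 probes. On the normal-mated array they gave 1.33 ± 1.33 and 1.59 ± 1.58, and on the not mated array 2.66 ± 2.66 and 3.15 ± 3.13. Zp1 (chr19:10596616-10596675, minus strand), whose protein links the filaments of the coat, gave 4.04 ± 1.59 on the vasectomized-mated array, 1.64 ± 1.64 on the normal-mated array and 3.26 ± 3.24 on the not mated array. No fold is given for Zp1 or Zp2, since neither was well above background on any array. Of the 3 coat genes, only Zp3 was well above background on these arrays. By the software's weaker flag, positive and significant, Zp1 and 1 of the 2 Zp2 probes passed on the vasectomized-mated array alone.

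**Figure D1:**
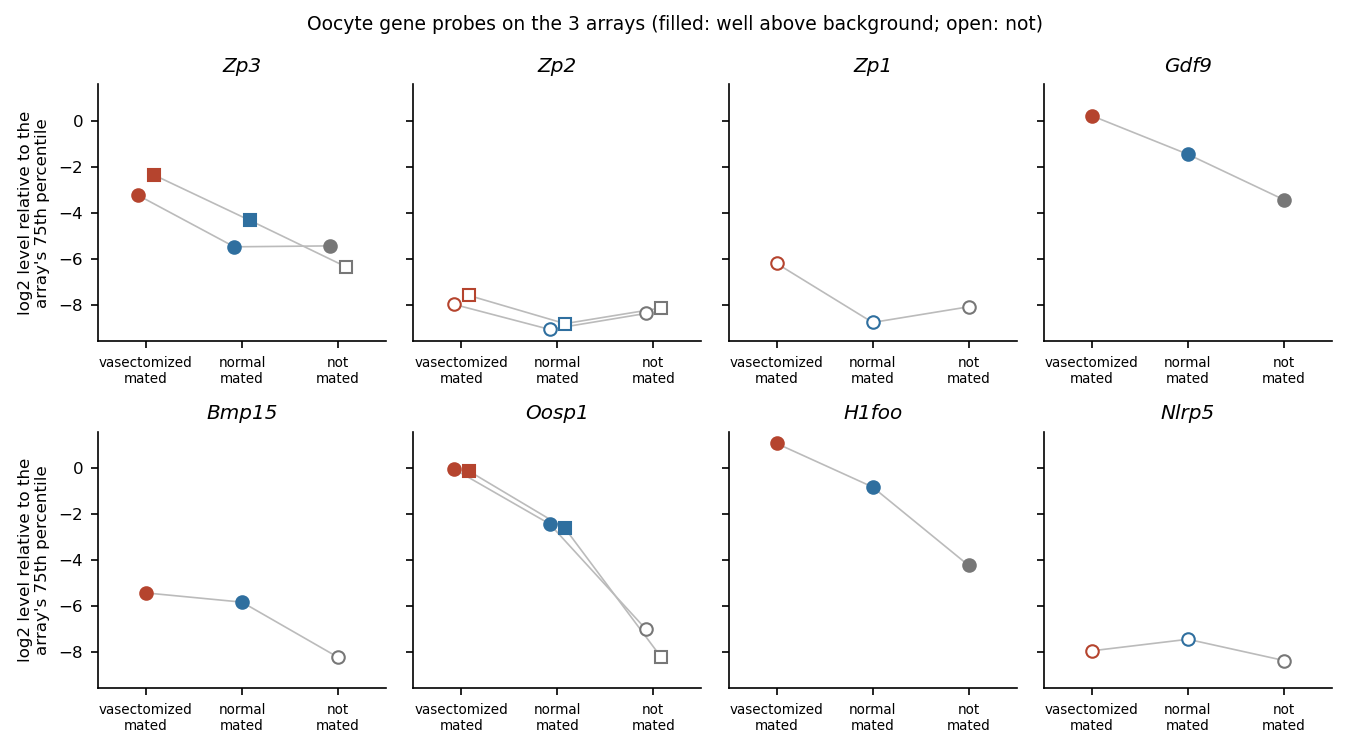
Log2 level of each member probe relative to its array's 75th percentile (y axis), on the vasectomized-mated, normal-mated and not mated arrays (x axis), 1 pool of 10 females each. Filled symbols are well above background and open symbols are not, circles and squares are the first and second probe of a gene, and levels are not comparable between probes. Gdf9, Oosp1 and H1foo step down across the 3 arrays, whereas Zp1, Zp2 and Nlrp5 have open symbols throughout.

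Gdf9 and Bmp15 encode the paired growth factors of the TGF-beta family that the oocyte secretes onto its granulosa cells. Gdf9 (chr11:53394562-53394621, plus strand) gave 341 ± 34.2 on the vasectomized-mated array, 258 ± 25.8 on the normal-mated array and 81.2 ± 8.60 on the not mated array. It was well above background on all 3 arrays, and its levels were 0.21, -1.46 and -3.43 in that order. Both the signal and the scaled level were lowest on the not mated array. Gdf9 was 12.5-fold higher in vasectomized-mated females than in females not mated, a log2 ratio of 3.64 with a software SD of 0.21. It was 3.92-fold higher in normal-mated females than in females not mated (log2 1.97, SD 0.21), and 3.18-fold lower in normal-mated than in vasectomized-mated females (log2 -1.67, SD 0.20).

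Bmp15, which lies on chromosome X (chrX:4788993-4789052, minus strand), gave 6.87 ± 1.42 on the vasectomized-mated array, 12.6 ± 1.86 on the normal-mated array and 2.95 ± 2.76 on the not mated array. It was well above background on both mated arrays and close to the limit on each. Its bounds were at least 1.54-fold for vasectomized mated over not mated and at least 1.17-fold for normal mated over not mated. Neither passes 2-fold, and normal-mated over vasectomized-mated females stood at a log2 ratio of -0.39 with a software SD of 0.37. Bmp15 thus had a bound or ratio short of 2-fold in each of the 3 comparisons, while Gdf9 was past 2-fold in all 3, upward over not mated females and downward in normal mated over vasectomized mated. The place of Bmp15 depended on the treatment of dim probes. With no filter on them its log2 ratios were 2.79 for vasectomized mated and 2.39 for normal mated over not mated, the same with the software's weaker flag, and normexp background correction gave a bound of 1.34 for vasectomized mated over not mated. Spike-in scaling gave 1.82 for normal mated over vasectomized mated.

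Oosp1, the oocyte-secreted protein 1 gene, showed the widest gap between arrays. Its 2 probes share 50 of 60 bases (chr19:11347806-11347865 and chr19:11347796-11347855, minus strand), so they are no independent repeat. The first gave 287 ± 28.8 on the vasectomized-mated array, 131 ± 13.2 on the normal-mated array and 6.91 ± 3.39 on the not mated array, and the second gave 267 ± 26.7, 115 ± 11.6 and 2.97 ± 2.97 in the same order. Both were clear on the mated arrays and not well above background in the not mated pool. Oosp1 was at least 64.3-fold and at least 59.8-fold higher in vasectomized-mated than in not mated females by its 2 probes, and at least 12.2-fold and at least 10.7-fold higher in normal-mated than in not mated females. It was 5.26-fold and 5.59-fold lower in normal-mated than in vasectomized-mated females.

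H1foo, the linker histone of the oocyte, which packs chromatin in place of the somatic H1 proteins, was measured at chr6:115975812-115975871 (plus strand). It gave 613 ± 61.3 on the vasectomized-mated array, 398 ± 39.8 on the normal-mated array and 46.6 ± 5.63 on the not mated array, well above background on each. H1foo was 39.0-fold higher in vasectomized-mated than in not mated females (log2 5.29, software SD 0.23) and 10.5-fold higher in normal-mated than in not mated females (log2 3.40, SD 0.23). It was 3.71-fold lower in normal-mated than in vasectomized-mated females. Of 9 other linker histone genes on the array, 3 of 8 compared were higher after vasectomized mating and 2 lower, with a median log2 ratio of 0.56. Of all genes, 25.8% were higher and 16.5% lower. The replication-dependent H1f3 stood at 3.05, H1f1 at 1.96 and H1f4 at 1.23, whereas H1f10 stood at -1.35. Between normal-mated and not mated females 1 of 7 was higher, H1f3 at 1.45, with a median of 0.64, beside 9.82% of all genes higher.

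Nlrp5, also known as Mater, encodes a core protein of the subcortical maternal complex. It gave 1.21 ± 1.21 on the vasectomized-mated array, 4.11 ± 1.41 on the normal-mated array and 2.68 ± 2.67 on the not mated array, not well above background on any. Its partners in the complex were tallied from a list. Khdc3, which encodes FILIA, gave 113 on the vasectomized-mated array, 26.3 on the normal-mated array and 10.4 on the not mated array, at least 25.3-fold higher after vasectomized mating and at least 2.45-fold higher after normal mating than in females not mated. Ooep was at least 7.64-fold and Padi6, a lattice protein of the egg, at least 3.81-fold higher after vasectomized mating, while Zbed3 was 3.61-fold lower. Of 6 partners 3 were past 2-fold upward and 2 past it downward, beside 25.8% and 16.5% of all genes. The median log2 ratio of the partners was 1.30. Over the 3 partners well above background on both arrays the median was -1.03, so the sign of that median depends on counting the bounds.

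By gene, 4 of the 6 members found by name (Zp3, Gdf9, Oosp1 and H1foo) were past 2-fold upward in vasectomized-mated over not mated females. None was past it downward. Bmp15 had a lower bound short of 2-fold, which leaves its place open, and Zp2 had no ratio. Zp3 counts by the probe that was brighter over the 3 arrays. Of all 19297 genes compared, 25.8% lay past 2-fold upward and 16.5% past it downward. Since the members were picked on this array, nothing is read from their count. Between normal-mated and not mated females, the same 4 genes were higher in the mated and none lower, where 9.82% of 19286 genes were higher and 13.2% lower. This comparison reuses the not mated array, whose low member values also entered the choice. Zp3 counts as higher in it by the brighter probe alone, since its other probe stood at a log2 ratio of -0.04. Set against vasectomized-mated females, normal-mated females had the same 4 lower, where 28% of 18974 genes were lower and 14.7% higher. The median member log2 ratio was 3.69, 1.97 and -1.89 in the 3 comparisons in that order, and that of all genes 0.18, -0.05 and -0.27.

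**Figure D2:**
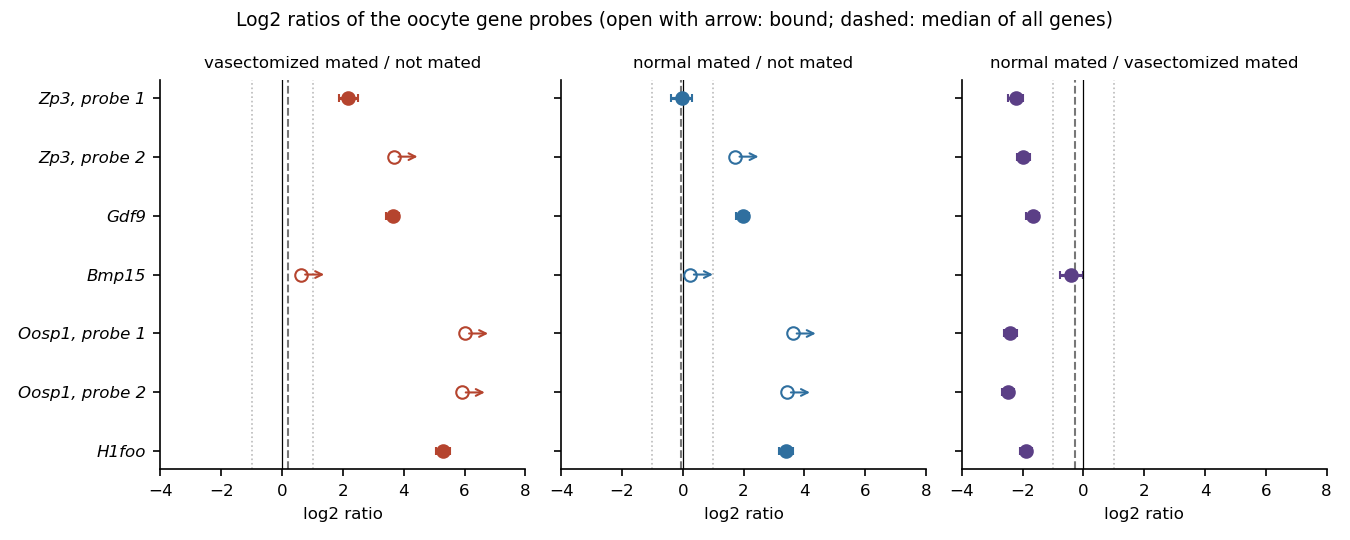
Log2 ratio (x axis) of each probe of the 5 genes with a ratio (y axis), in the 3 comparisons. Filled points carry the software's SD, open points with arrows are bounds from a not mated array below background, the dashed line is the median of all genes and dotted lines mark 2-fold. Bmp15 sits inside the dotted lines in each panel, but only as a lower bound in both comparisons with not mated. Zp3 probe 1, the one that spans 851 bases, sits at -0.04 for normal mated over not mated.

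The scaling mattered for these values. Scaling to the 246 E1A spike-in spots instead of the 75th percentile moved the median log2 ratio of all genes by -2.79 for vasectomized mated over not mated. Gdf9 and Zp3 then had log2 ratios of 0.91 and 0.97 for vasectomized mated over not mated, and Oosp1 3.28 and H1foo 2.56, so that 2 members passed 2-fold. Between normal-mated and vasectomized-mated females the direction turned for Gdf9 (0.55), H1foo (0.33) and Zp3 (0.25), and Oosp1 stood at -0.18, where the median of all genes was 1.94. For normal mated over not mated, log2 ratios under spike-in scaling remained above 1 for these 4 genes, Gdf9 at 1.46 among them. With normexp background correction Zp3 fell short of 2-fold in that comparison, at a log2 ratio of 0.73, as it did with the mean over its probes, at 0.98.

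**Figure D3:**
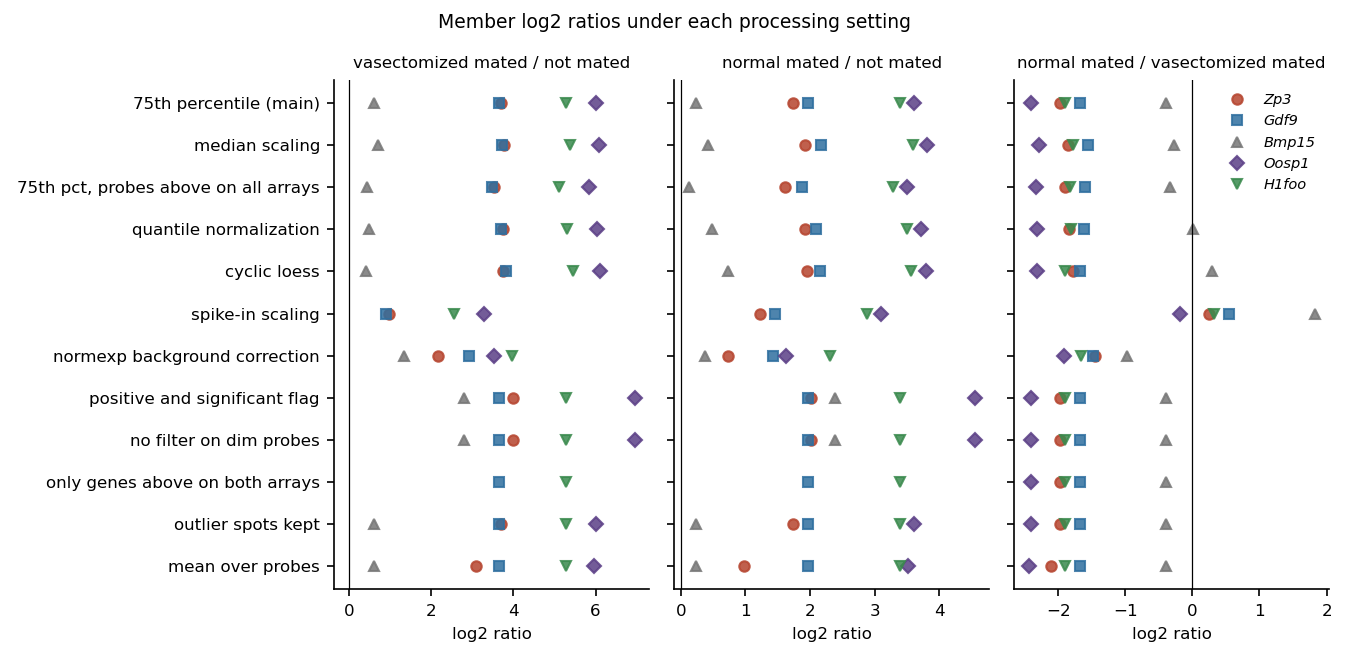
Log2 ratio (x axis) of 5 members under each processing setting (y axis) in the 3 comparisons, 1 symbol per gene. Spike-in scaling puts Gdf9 at 0.91 in vasectomized mated over not mated, gives no ratio there for Bmp15, and puts Gdf9 at 0.55 in normal mated over vasectomized mated.

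Other genes known from the oocyte were counted over 4 lists of 66 genes, 57 of them on the array. For vasectomized mated over not mated, 25 of 41 genes compared were at least 2-fold higher and 3 lower, with a median log2 ratio of 1.41. Of the 25, 16 were bounds, with no not mated signal well above background. Among the 20 genes well above background on both arrays, 9 were higher and 3 lower (median 0.61), where 24.8% of all 17330 such genes were higher and 16.2% lower. For normal mated over not mated, 10 of 38 were higher and none lower (median 0.56), and 7 of the 10 were bounds. Among the 21 genes well above background on both of these arrays, 3 were higher and none lower (median 0.36), where 9.14% of all 17955 such genes were higher and 11.7% lower. For normal mated over vasectomized mated, 3 of 41 were higher and 22 lower (median -1.13), beside 14.7% and 28% of all genes.

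For vasectomized mated over not mated, the general oocyte transcripts with the highest values were Oas1d, Bcl2l10, Oosp3 and Dppa3, all of them bounds against a not mated signal that was not well above background. Oas1d, an ovary-restricted member of the oligoadenylate synthetase family, gave 150 on both mated arrays and 10.5 on the not mated array, and was at least 33.5-fold higher after vasectomized and at least 14.0-fold higher after normal mating. Bcl2l10, a BCL2 family gene, was at least 19.9-fold and at least 9.11-fold higher in these 2 comparisons. Oosp3, a relative of Oosp1, was at least 16.3-fold higher after vasectomized mating but at least 1.40-fold after normal mating. Dppa3, whose protein guards maternal DNA methylation, was at least 11.7-fold and at least 3.96-fold higher. Of 36 such genes on the array 19 of 29 compared were higher after vasectomized mating (median 1.63), and 7 of 26 after normal mating (median 0.57), beside 25.8% and 9.82% of all genes. Kept to genes well above background on both arrays, the medians were 0.55 and 0.49.

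Regulators of oocyte genes gave less. Figla was not well above background on any array (1.37, 1.44 and 2.86 on the vasectomized-mated, normal-mated and not mated arrays). Nobox was well above background in the vasectomized-mated pool alone, at 7.12, against 4.15 on the normal-mated and 2.84 on the not mated array, a bound of at least 1.59-fold over not mated. Sohlh2, a helix-loop-helix factor of germ cells, was 3.39-fold higher after vasectomized and 2.04-fold higher after normal mating, and Taf4b was at -0.52 as a bound for vasectomized mated over not mated. Of 8 other NLRP genes on the array, 5 were not compared after vasectomized mating. Of the 3 compared, Nlrp4a (at least 2.46-fold) and Nlrp4f (2.33-fold) were over 2-fold higher, beside 25.8% of all genes. Nlrp14 was at least 1.91-fold higher. The Nlrp4a and Nlrp14 values are bounds against a dim not mated signal. After normal mating Nlrp4a was at least 3.31-fold higher and Nlrp4f stood at a log2 ratio of -0.07. NLRP, Oas1 and Oog genes have close copies, and whether a probe also binds a copy was not tested.

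The receptors and SMAD proteins that carry GDF9 and BMP15 signals are made by many tissues. Of 12 compared, 6 were higher and 1 lower after vasectomized mating (median log2 0.99), and none of 12 was past 2-fold after normal mating (median -0.09). Of all genes, 25.8% were higher and 16.5% lower after vasectomized mating, and 9.82% and 13.2% after normal mating. Smad3, which GDF9 signalling activates, was at -2.93, whereas Smad2 was at 1.59, the type I receptor gene Bmpr1a at 2.18 and the BMP antagonist Grem1 at a bound of 1.91. The 2 Bmpr1a probes ran from -0.21 to 2.18. Genes of cumulus expansion, the response of cumulus cells to oocyte factors and luteinizing hormone, gave 6 higher and 3 lower of 11 (median 1.29) after vasectomized mating, and 3 higher and 4 lower of 11 (median -0.43) after normal mating. Ptgs2, the inducible cyclooxygenase, led at 7.11 and 4.46 for vasectomized and normal mated over not mated. The EGF-like ligands Areg (at least 2.98) and Btc (2.18) and the matrix proteoglycan Vcan (1.89) followed. Has2, the hyaluronan synthase of the expanding cumulus, was at -1.23 and -3.20 for vasectomized and normal mated over not mated, opposite to Gdf9.

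Markers of other ovarian cells were given beside the members. Of 11 granulosa and cumulus markers compared, 7 were higher and 1 lower after vasectomized mating (median 1.43), beside 25.8% and 16.5% of all genes. After normal mating 2 of 10 were higher and 4 lower (median -0.40), beside 9.82% and 13.2% of all genes. The summed level of the granulosa markers, in multiples of the 75th percentile, was 13.9 on the vasectomized-mated array, 13.4 on the normal-mated array and 5.41 on the not mated array. It adds probes whose levels are not comparable, and the inhibin subunit gene Inhbb alone made up 64.8%, 83.6% and 61.8% of it in that order, so it does not describe the list. The nuclear receptor gene Nr5a2 was at 4.76 for vasectomized mated over not mated, the estradiol enzyme gene Hsd17b1 at 3.43, Slc38a3 at a bound of 2.68 and Inha at 2.47. From the same list, Fshr and Esr2 were not well above background on any array. Foxl2 reached that mark on the not mated array alone, at 28.5, against 4.82 on the vasectomized-mated and 8.17 on the normal-mated array. Cyp19a1 was at least 3.78-fold higher after vasectomized and at least 1.09-fold higher after normal mating than in females not mated. Amhr2 was 2.47-fold and 2.74-fold higher in these comparisons.

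Of 9 theca and luteal markers compared, 3 were higher and none lower after vasectomized mating (median 0.72), beside 25.8% and 16.5% of all genes. After normal mating 4 were higher and 1 lower (median 0.40), beside 9.82% and 13.2% of all genes. The steroid enzyme gene Hsd3b1 stood at 8.11 and Cyp11a1 at a bound of 7.20 for vasectomized mated over not mated, with the prostaglandin receptor gene Ptgfr at 1.62 and Nr5a1 at -0.90. The luteinizing hormone receptor gene Lhcgr was not well above background on any array. The summed level of these markers was 15.3 on the vasectomized-mated array, 5.63 on the normal-mated array and 5.93 on the not mated array. Hsd3b1 made up 50.8% of the vasectomized-mated sum, and Scarb1 35.1% of the normal-mated and 66.0% of the not mated sum. The part of granulosa, theca or luteal cells in the member values was not tested.

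Tissue markers were present throughout. All 8 epithelial and all 6 smooth muscle markers were well above background on all 3 arrays. Summed epithelial levels were 620, 849 and 598 on the vasectomized-mated, normal-mated and not mated arrays, of which Ovgp1 alone made up 58.7%, 37.9% and 44.9%. Summed smooth muscle levels were 1190 on the vasectomized-mated, 337 on the normal-mated and 445 on the not mated array, of which Tagln alone made up 76.7%, 62.6% and 42.4%. Epithelial genes had a median log2 ratio of -0.29 after vasectomized and 0.72 after normal mating, with Pax8 at -3.76 by one probe and -0.72 by the other, Foxa2 at 1.78, Cldn3 at -1.65 and Foxj1 at 1.26 for vasectomized mated over not mated. Smooth muscle genes had medians of -0.69 and -0.92 in these comparisons. For vasectomized mated over not mated Tagln was at 2.28, Cnn1 at 1.00, Myh11 at -1.38 and Des at -1.07. For vasectomized mated over not mated the medians of these 2 lists lay below 0, and those of the other 11 of 13 lists above it. The median of all genes was 0.18. Genes dim on the not mated array alone enter only as higher, which lifts the medians of lists with many of them. Over genes well above background on both arrays the maternal complex median was -1.03. No split between tissue and other lists is read from these signs.

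Of 10 sperm and spermatid markers, 4 were compared. After vasectomized mating 1 was higher (Tnp2 at 1.34), and after normal mating none, beside 25.8% and 9.82% of all genes. For vasectomized mated over not mated Prm2 was at a bound of 0.75 and Tnp1 at 0.25. Prm1 was at 0.27 by its brightest probe, with its probes running down to -1.12. The other 6, among them Odf1, Smcp, Izumo1 and Adam2, were not well above background on any array. The summed level of the 10 markers was 0.482 on the vasectomized-mated array, 0.270 on the normal-mated array and 0.358 on the not mated array. Prm1 alone made up 69.9%, 65.4% and 77.9% of it in that order. The 3 Prm1 probes ran from -0.66 to 0.46 for normal mated over not mated, so the sum does not describe the list. Of 5 embryo markers on the array, Nanog and Usp17la were not well above background on any, and Tdgf1 was at least 12.5-fold higher after vasectomized mating than without mating. Cdx2 was well above background on the normal-mated array alone, at 22.6, against 1.19 on the vasectomized-mated and 2.66 on the not mated array, and was at least 2.10-fold higher in normal-mated than in not mated females. The embryo markers summed to 0.371, 0.125 and 0.108 on the vasectomized-mated, normal-mated and not mated arrays. Tdgf1 made up 50.9% of the vasectomized-mated sum, and Zscan4c 57.6% of the normal-mated and 78.7% of the not mated sum.

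**Figure D4:**
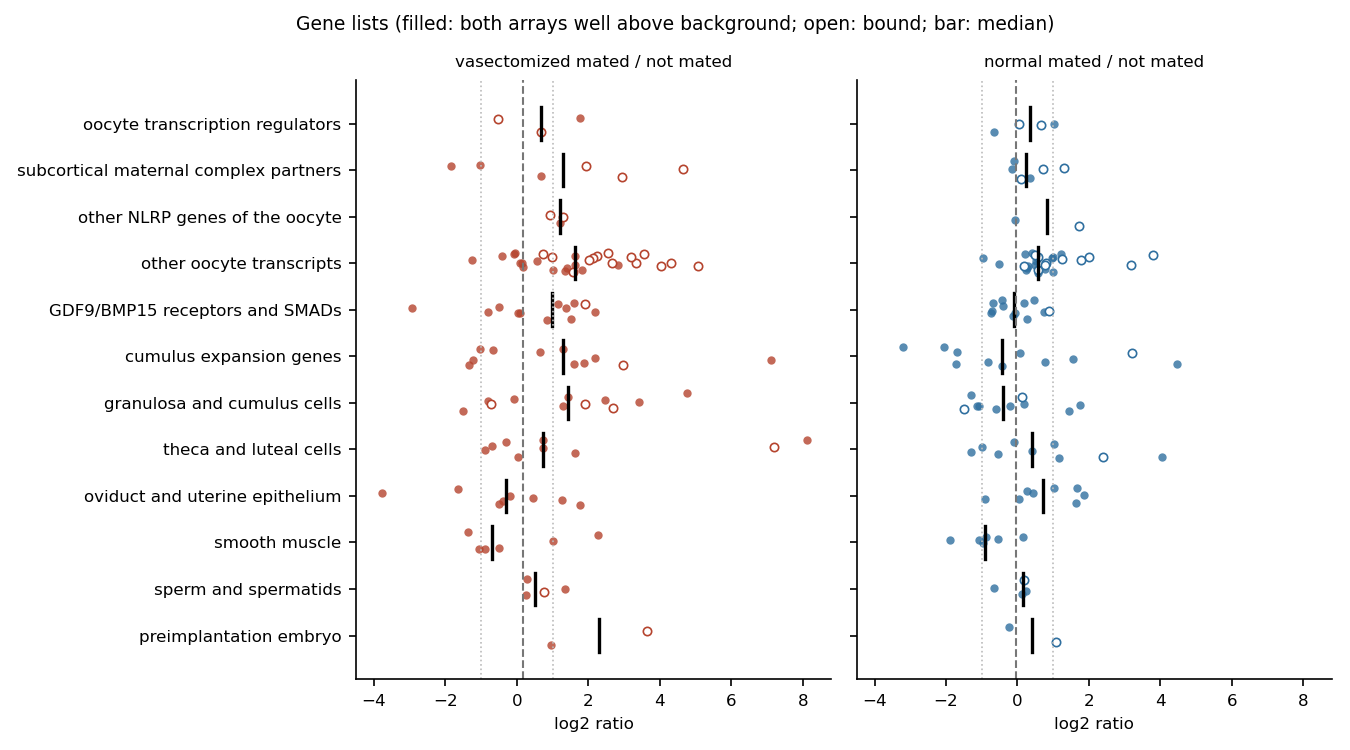
Log2 ratios (x axis) of listed genes (points) in 12 lists (y axis), for vasectomized mated over not mated and normal mated over not mated. Filled points were well above background on both arrays, open points are bounds, bars are list medians, the dashed line is the median of all genes and dotted lines mark 2-fold. General oocyte transcripts have a median of 1.63 after vasectomized mating and 0.57 after normal mating.

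The genes most like Gdf9, H1foo, Oosp1 and Zp3 were named by the distance between log2 levels centred on the gene's own mean, over only 3 arrays and 18660 genes. Nearest to Gdf9 were the chemokine gene Ccl2 (distance 0.034), Tex101 and Slc6a14, with 30 genes within 0.25. Nearest to H1foo were Tnfaip3 (0.043), which encodes a ubiquitin-editing enzyme, and the oocyte gene Oog3 (0.109), with 4 genes within 0.25. Nearest to Oosp1 was Ptgs2 (0.185), the 1 gene within 0.25, followed by Trem3. Stkld1, E330021D16Rik and Spink4 were nearest to Zp3 (16 genes within 0.25). The not mated signals of Oosp1 and of the Zp3 probe used were not well above background and enter these distances as measured. The same holds for Oog3, Tex101, Trem3 and E330021D16Rik, at not mated levels of -8.29, -8.2, -8.37 and -6.15. The likeness of each of these genes is open to that error. Over 3 arrays likeness is a description only.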

How the data were processed

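The deposited files are Agilent Feature Extraction output of 3 single-colour arrays, 1 per group, on 1 slide. Their intensities (processed signal, software error, flags and positions on mm7) were made by the authors with Feature Extraction, version 10.5.1.1 per the file headers and 9.5.3 per the submitters' processing notes. From these intensities the log2 signal minus each array's 75th percentile over non-control probes was computed with R 4.3.3, limma 3.58.1 and Python 3.11.15. Outlier spots were left out and spots of a probe averaged. A gene's value is that of its brightest probe over the arrays, and probes were named through RefSeq by accession (22944 of 41174), symbol (6664), synonym (3108) or description (54), and otherwise by the name in the file (8404). A ratio with 1 array not well above background is a bound, and one with neither is not given. A bound that fell below 1-fold in its own direction was left out too. In comparisons with not mated, a gene dim on the not mated array alone could therefore enter only as higher. This held for members, lists and all genes alike, and it raises the counts and medians of lists with many such genes. The threshold is 2-fold. With 1 array per group there was no test, and precision is limited by the number of arrays. Ratio computation was checked on simulated data. The members and lists were chosen with earlier results of these data known. In each list the 4 genes with the largest absolute ratios of vasectomized mated over not mated are named, with any gene a sentence singles out. The alternatives tried were median, percentile, quantile, cyclic loess and spike-in scaling, normexp background correction, other filters on dim probes, outlier spots kept, the mean over probes and 3-fold. The genes most like Bmp15 in pattern are not reported here.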

Additional observations from a re-analysis of the deposited data

How the results depend on the processing

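No paired analysis was possible because each group had 1 array, and for the same reason no array could be left out. Spike-in scaling moved most values. It left 2 of 4 members past 2-fold for vasectomized mated over not mated and 0 of 4 for normal mated over vasectomized mated, where Gdf9 stood at 0.55, Zp3 at 0.25 and H1foo at 0.33. It gave 16778 genes past 2-fold (8177 with the 75th percentile) and 15779 (8096), with 1.2% and 98.5% of them higher (61.0% and 34.4%), and left 0 of 11 list medians above 0. For vasectomized mated over not mated the list medians became -2.06 for maternal complex partners, -1.51 for NLRP genes, -1.32 for other oocyte transcripts, -1.44 for cumulus expansion, -1.42 for granulosa markers and -0.43 for embryo markers. For normal mated over vasectomized mated they became 1.14, 1.79, 1.1, 1.18, 1.51 and 1.02 in that order. The spike-in shift of the median gene was -2.79, -0.53 for normal mated over not mated, and 2.21 for normal mated over vasectomized mated, and the cause was not tested.

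Restricting genes to those well above background on both arrays left 2 members past 2-fold in each comparison with not mated, since Oosp1 and the brighter probe of Zp3, the one counted, are bounds there, and put the maternal complex median at -1.03. Over all genes, 3-fold left 4211 genes for vasectomized mated over not mated, 1931 for normal mated over not mated (4438 at 2-fold) and 3912 for normal mated over vasectomized mated. Normexp gave 2301 for normal mated over not mated, and no filter on dim probes gave 14382 for normal mated over vasectomized mated. The share of higher genes for normal mated over not mated was 42.7%, against 56.6% with median scaling, 52.9% with cyclic loess, 59.5% with normexp and 16.3% with spike-in scaling. For vasectomized mated over not mated normexp gave 77.0%, and for normal mated over vasectomized mated no filter gave 22.8%. Settings other than spike-in scaling moved the median gene by -0.35 to 0.31, but some list and member values moved further. For vasectomized mated over not mated, quantile normalization put the epithelial median at -1.14 (main -0.29) and the smooth muscle median at -1.42 (main -0.69). For normal mated over vasectomized mated, cyclic loess put the oocyte regulator median at 0.56 (main -0.73) and Bmp15 at 0.3 (main -0.39). Signals near the dim limit, such as those of Bmp15, set the precision.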

Other observations

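Some genes known from the oocyte did not follow the members. Kit, the receptor for the factor that granulosa cells send to the oocyte, gave 145 on the vasectomized-mated array, 928 on the normal-mated array and 574 on the not mated array. It was 1.42 on the log2 scale higher in normal-mated than in vasectomized-mated females. Bmp6, another growth factor of the oocyte, was at -1.25 for vasectomized mated over not mated and at 2.21 for normal mated over vasectomized mated. Its other probe was within 2-fold in both comparisons, at -0.21 and 0.87. The RNA-binding protein gene Ybx2 was at -0.08 and the oogenesin Oog1 at -0.04 for vasectomized mated over not mated. Each of these genes was well above background on all 3 arrays, and the not mated signals were 231 for Bmp6, 270 for Ybx2 and 1410 for Oog1.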
